A study of Mus musculus with 2 samples.

Results

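DNA repair genes were examined in E9.5 embryos of C57BL6 mice, in primordial germ cells (PGCs), from which the gametes of both sexes descend. A list of 56 genes of base excision, mismatch, homologous recombination and Fanconi repair was matched by symbol to the table of 18877 genes. Of these, 54 had a row, and the glycosylase genes Tdg and Neil2 were not analysed here. The genes were divided into 7 sub-pathways, namely base excision (17 genes), mismatch (4), the single-strand binding complex RPA (3), homologous recombination (10), Fanconi (12), damage signalling (5) and end joining (3).

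RNA-seq was available for 1 group, untreated E9.5 PGCs isolated with an antibody against SSEA1, a surface carbohydrate of early germ cells, in 2 replicates described as biological repetitions. The labels do not say which embryos each replicate came from. The methods describe female embryos, and sorting for SSEA1 with or without CD61, so cells that carry SSEA1 without being PGCs may be included. With 1 group there was no comparison between conditions, and with 2 libraries the smallest two-sided p of a sign-flip permutation would be 0.5, so no test was run and differences are given in each replicate.

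Base excision repair removes single damaged or modified bases. A DNA glycosylase cuts out the base, an AP endonuclease nicks the strand at the empty site, and a polymerase, a flap nuclease and a ligase refill the gap, while PARP enzymes and the scaffold protein XRCC1 attend to the strand break. Mismatch repair corrects replication errors, and the Fanconi pathway unhooks crosslinks between both strands and passes the resulting break to homologous recombination. Base excision has been discussed as a route of DNA demethylation in PGCs, and loss of Fanconi genes is known to deplete the germ line.

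Values are TPM as deposited, a relative transcript abundance per length of gene, so that levels of different genes can be set beside each other. The length behind the values was found to be the summed exons of all transcripts of a gene, and ratios that change with it are also given with the length of 1 principal transcript per gene. Reads behind each value were recovered from the table. Replicate 1 held 15912461 reads, 2.92 times the 5458685 reads of replicate 2. The 54 repair genes held 60596 reads (0.381%) in replicate 1 and 20153 reads (0.369%) in replicate 2. Exact Poisson 95% intervals on these reads cover counting error only, and values in replicate 2 carry the wider intervals. All 10 PGC markers were at 1 TPM or more in both replicates, with Dppa3 at 5013 and 5075 TPM and Pou5f1 lowest at 1.54 and 1.46 TPM. Globin and other erythroid genes summed to 4002 and 3780 TPM, with 7 of 8 markers in the table and none at 0 in both replicates. A level of 1 TPM in both replicates was reached by 6 of these 7, compared with 60% of all genes. The same level was reached by 0 of 4 endothelial, 1 of 5 mesenchymal, 1 of 4 visceral endoderm and 1 of 3 gut endoderm markers. It was reached by 2 of 5 gonadal epithelium, 3 of 4 macrophage and 3 of 3 neural markers. Lum and Foxa1 were at 0 in both. The part of these other cell types in the repair gene levels was not tested. In bulk RNA, fewer cells of a type and less RNA per cell cannot be told apart.

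Most of the repair genes were detected. With 1 TPM or more in each replicate taken as detection, 48 of 54 (88.9%) were detected, compared with 60% of all genes in the table. The 6 below 1 TPM in at least 1 replicate were the base excision genes Apex2, Ogg1 and Neil1 and the Fanconi genes Fanca, Fancc and Fancf. Of the 54 genes, 41 lay above the median of the table in both replicates, compared with 8535 of all 18877 genes. A level of 10 TPM in both was reached by 25, compared with 4784 of all genes. As deposited, 4 reached 100 TPM in both, namely Rpa3, Apex1, Msh6 and Usp1, and the count over all genes at this level is not given here. These 4 genes held 68.6% of the summed TPM of the repair genes in replicate 1 and 69.5% in replicate 2. With principal transcripts Msh6 was at 95.9 and 93.6 TPM and Usp1 at 87.4 and 74.2 TPM. The median of log2(TPM + 1) over the 54 genes was 3.27 in replicate 1 and 3.31 in replicate 2 (3.29 ± 0.03, SD, n = 2), and over all genes it was 1.87 ± 0.03.

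**Figure D1:**
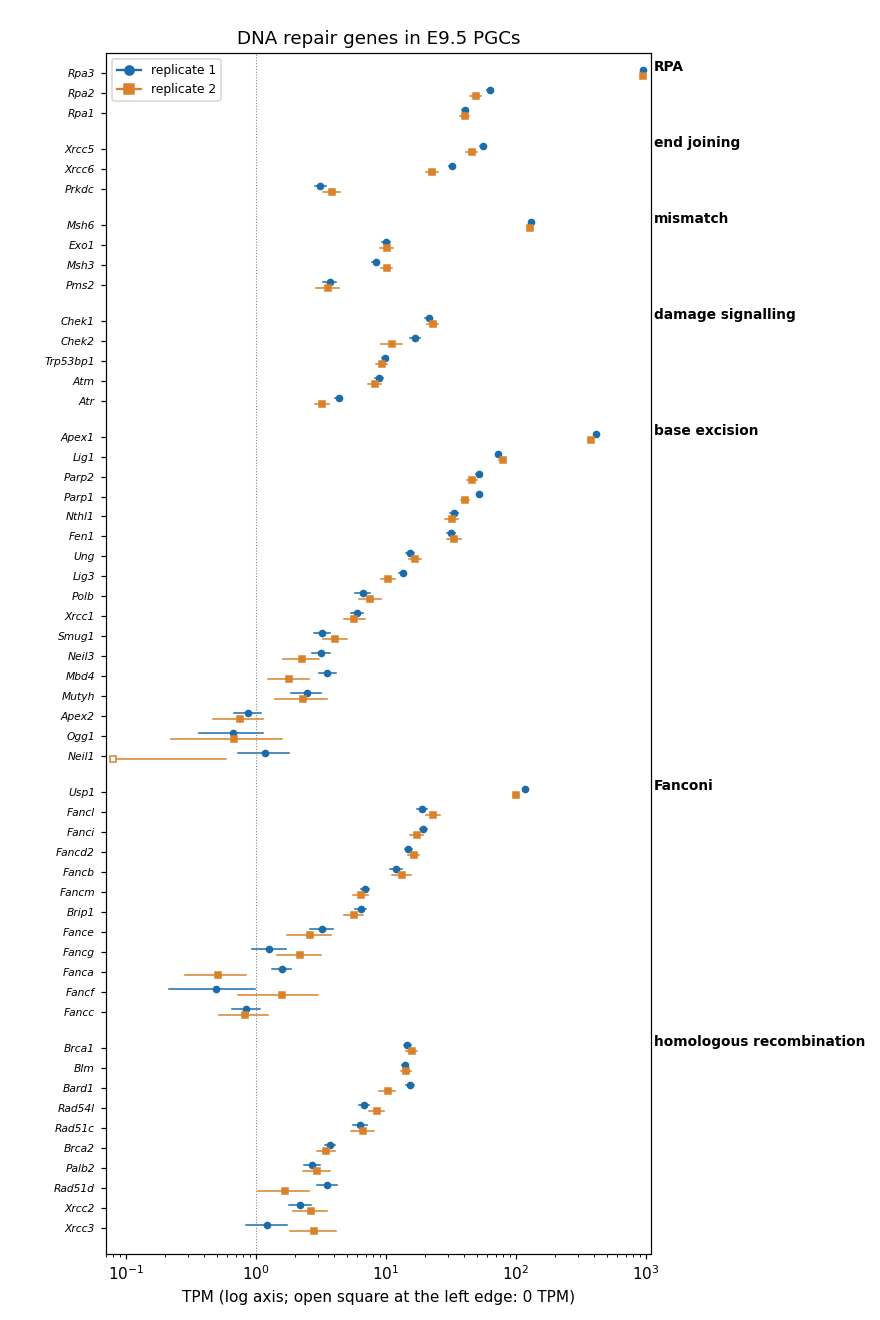
TPM of the 54 repair genes on a log axis in replicate 1 (circles) and replicate 2 (squares), grouped by sub-pathway, with exact Poisson 95% intervals as lines. Levels run from Neil1, at 0 in replicate 2 (open square), to Rpa3 at 944 and 948 TPM, and the dotted line marks 1 TPM.

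Sequences just before the start sites of the 2 highest genes are shown first, because Rpa3 and Apex1 together carried more than the rest of the list. They are the 120 bases before the most upstream RefSeq start on GRCm38.p6, 5′ to 3′ on the strand of the gene. CCAAT words and GC boxes (GGGCGG) on either strand are in capitals. For Rpa3 the stretch is chr6:8259142-8259261 on the minus strand, with 2 CCAAT words, 1 GC box and 13 CpG sites. For Apex1 it is chr14:50924829-50924948 on the plus strand, with 1 CCAAT word, 1 GC box and 10 CpG sites.
Rpa3: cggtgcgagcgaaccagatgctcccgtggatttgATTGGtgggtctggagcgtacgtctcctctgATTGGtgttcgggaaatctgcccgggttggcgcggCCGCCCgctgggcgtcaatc
Apex1: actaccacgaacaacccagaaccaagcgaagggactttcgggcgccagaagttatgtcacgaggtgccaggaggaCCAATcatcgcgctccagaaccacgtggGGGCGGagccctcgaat

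Among the break sensors of base excision, the PARP genes were above the scaffold gene. Parp1, the main poly(ADP-ribose) polymerase at strand breaks, was at 52.6 and 40.5 TPM in replicates 1 and 2, from 2645 and 717 reads. Parp2, its smaller relative, was at 52.0 and 46.1 TPM (49.0 ± 4.17). The ratio of Parp1 to Parp2 was 1.01 in replicate 1 (95% interval 0.952 to 1.07) and 0.879 in replicate 2 (0.786 to 0.984). As deposited, Parp1 did not differ from Parp2 beyond counting error in replicate 1 and was below it in replicate 2, whereas with principal transcripts it was below in both, at 0.721 (0.679 to 0.766) and 0.627 (0.561 to 0.702). The Poisson intervals of Parp1 itself did not overlap between replicates. Xrcc1, which holds the repair enzymes at the break, was at 5.89 ± 0.211 TPM, and Parp1 exceeded it 8.70-fold in replicate 1 and 7.05-fold in replicate 2, or 5.15-fold and 4.18-fold with principal transcripts.

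DNA glycosylases, which choose the base to be removed, were low apart from Nthl1 and Ung. The median of the 8 glycosylase genes in the table was 1.89 ± 0.26 on the log2(TPM + 1) scale, with 6 of them detected. Nthl1, which removes oxidised pyrimidines, was at 32.9 ± 1.05 TPM and alone held 53.1% of the glycosylase TPM in replicate 1 and 53.5% in replicate 2. Ung, which removes uracil, was at 15.4 and 16.8 TPM, and Smug1, a second uracil glycosylase, at 3.25 and 4.09 TPM. The ratio of Ung to Smug1 was 4.72 in replicate 1 (4.02 to 5.56) and 4.11 in replicate 2 (3.22 to 5.29), so Ung was the higher gene in both, and with principal transcripts it was 7.63 and 6.64. Together Nthl1 and Ung held 77.4% and 81.5% of the glycosylase TPM.

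The remaining glycosylase genes lay between 0 and 5 TPM in every sample. Mbd4, which removes thymine and uracil opposite guanine in CpG sites, averaged 2.68 ± 1.23 TPM from 178 and 32 reads, and its intervals did not overlap between replicates. Mutyh, which removes adenine opposite oxidised guanine, averaged 2.37 ± 0.118 TPM. Neil3, a glycosylase of proliferating cells, was at 3.18 and 2.26 TPM from 168 and 42 reads. Its relative Neil1 was at 1.18 TPM from 21 reads in replicate 1 and at 0 in replicate 2, where 3 reads would be 0.480 TPM. Neil3 exceeded Neil1 2.69-fold in replicate 1 (1.71 to 4.47), or 6.01-fold with principal transcripts (3.81 to 9.96). Neil1 was the only repair gene over 2-fold apart between replicates on the log2(TPM + 1) scale. Ogg1, which removes oxidised guanine, was at 0.673 and 0.684 TPM from 14 and 5 reads. These few reads leave Ogg1 anywhere from 0.222 to 1.60 TPM in replicate 2.

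The AP endonuclease genes differed most among the related pairs with reads for both genes in each replicate. Apex1, the main AP endonuclease, was at 411 and 376 TPM (393 ± 24.7) from 5551 and 1786 reads, the second highest of the 54 genes. Apex2, a nuclease of the same family with weak AP endonuclease activity, was at 0.866 and 0.753 TPM from 72 and 22 reads. Apex1 exceeded Apex2 474-fold in replicate 1 (376 to 607) and 499-fold in replicate 2 (329 to 799), or 295-fold and 311-fold with principal transcripts. Apex1 lies at chr14:50924968-50927139, and 61.7% of its exonic bases overlap the gene Pip4p1 on the opposite strand, which was at 129.9 and 120.2 TPM. Strand handling of the counting is not given in the sources used here, so part of the Apex1 reads could come from Pip4p1 and this was not tested.

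Gap filling and ligation genes had a median of 4.37 ± 0.09 on the log2(TPM + 1) scale, above that of the glycosylases that start the pathway. The difference from the glycosylase median was 2.36 in replicate 1 and 2.60 in replicate 2. Lig1, the ligase of replication and long-patch repair, was at 73.5 and 79.3 TPM. Lig3, which seals short patches with XRCC1, was at 13.5 and 10.39 TPM. Lig1 exceeded Lig3 5.46-fold in replicate 1 (5.07 to 5.89) and 7.63-fold in replicate 2 (6.65 to 8.78). The intervals of these ratios did not overlap, with Lig3 the gene that was lower in replicate 2. With principal transcripts the ratios of Lig1 to Lig3 were 5.85 and 8.165. Fen1, the flap nuclease of long-patch repair, averaged 32.5 ± 1.31 TPM, and 84.2% of its exonic bases overlap Gm10143 on the opposite strand, at 23.2 and 24.8 TPM. Polb, the polymerase of short patches, averaged 7.11 ± 0.686 TPM. The genes shared with replication, Lig1 and Fen1, were thus above Lig3 and Polb in both replicates. The glycosylase genes Nthl1 and Ung were also above Lig3 and Polb in both, so the roles differed in their medians and overlapped in their members.

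**Figure D2:**
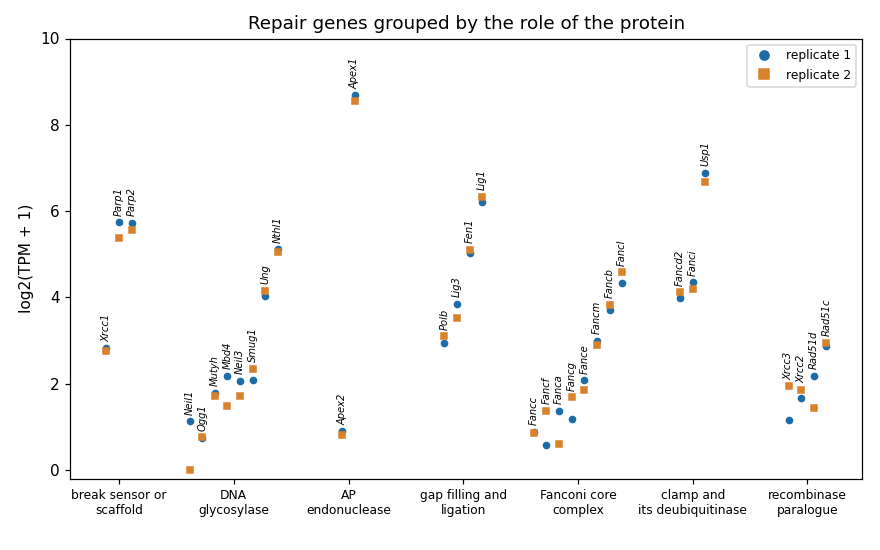
Levels as log2(TPM + 1) of repair genes grouped by what the protein does, with replicate 1 as circles and replicate 2 as squares and genes in order of mean level within a role. Glycosylase genes spread from 0 in 1 replicate (Neil1) to 5.11 (Nthl1, replicate 1), while Apex1 reached 8.69, and Usp1 stood above every gene of the Fanconi core complex.

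Mismatch repair genes were led by Msh6. Msh6, which with its partner recognises single mismatches, was at 132 and 129 TPM (130.5 ± 1.97) from 5448 and 1876 reads. Msh3, which takes its place in the complex for larger loops, was at 8.38 and 10.2 TPM. Msh6 exceeded Msh3 15.8-fold in replicate 1 (14.7 to 16.9) and 12.7-fold in replicate 2 (11.4 to 14.2). This ratio rests on gene length, since the deposited values divide Msh3 by 11254 exonic bases whereas its principal transcript has 3946 bases, and with principal transcripts it was 5.64 and 4.55. Exo1, the exonuclease that removes the faulty stretch, was at 10.01 and 10.2 TPM. Pms2, the endonuclease subunit that nicks the new strand, was at 3.71 and 3.57 TPM, the lowest of the 4 genes in both replicates.

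RPA covers single-stranded DNA in replication and in nearly every repair pathway, and its genes had the highest median. Rpa3, the smallest subunit, was at 944 and 948 TPM (946 ± 2.95) from 10194 and 3601 reads, and held 40.4% and 42.4% of the summed TPM of the repair genes. Rpa2, the middle subunit, was at 63.5 and 49.1 TPM, and Rpa1, the large DNA-binding subunit, at 40.5 and 40.3 TPM. The subunits form a complex of equal parts, but Rpa3 exceeded Rpa1 23.3-fold in replicate 1 (22.3 to 24.5) and 23.5-fold in replicate 2 (21.7 to 25.5), or 36.0-fold and 36.3-fold with principal transcripts. Rpa2 exceeded Rpa1 1.57-fold in replicate 1 (1.47 to 1.67) and 1.22-fold in replicate 2 (1.08 to 1.37), or 2.36-fold and 1.83-fold with principal transcripts. Rpa3 is also the shortest gene of the 54, with 1136 exonic bases.

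Homologous recombination genes formed the sub-pathway with the lowest median of the 7, 2.56 and 2.55 on the log2(TPM + 1) scale. All 10 were detected, and 3 were at 10 TPM or more in both replicates, compared with 4784 of all 18877 genes. Brca1, a ubiquitin ligase that promotes resection of breaks, was at 14.7 and 15.8 TPM, and Blm, a helicase that dissolves recombination intermediates, at 14.1 and 14.3 TPM. Bard1, the partner of BRCA1, was at 15.5 and 10.3 TPM, with intervals that did not overlap between replicates. The ratio of Brca1 to Bard1 was 0.948 in replicate 1 (0.867 to 1.04) and 1.53 in replicate 2 (1.29 to 1.82), so as deposited Brca1 was above Bard1 beyond counting error in replicate 2 alone. With principal transcripts it was above in both, at 1.23 (1.13 to 1.35) and 1.99 (1.68 to 2.36). Brca2, which loads the recombinase onto single strands, averaged 3.62 ± 0.190 TPM, and Palb2, which joins BRCA1 to BRCA2, 2.83 ± 0.149 TPM. Brca1 exceeded Brca2 3.90-fold in replicate 1 (3.51 to 4.34) and 4.53-fold in replicate 2 (3.77 to 5.46), or 3.98-fold and 4.62-fold with principal transcripts.

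The recombinase paralogues, which help to build the filament on single-stranded DNA, had a median of 1.92 ± 0.02 on the log2(TPM + 1) scale. Rad51c averaged 6.52 ± 0.232 TPM and was the highest of the 4 in both replicates. Rad51d was at 3.54 and 1.69 TPM, Xrcc2 at 2.20 and 2.64 TPM, and Xrcc3 at 1.22 and 2.83 TPM. Rad51d and Xrcc3 moved in opposite directions between the replicates, each with intervals that did not overlap, from 125 and 21 reads for Rad51d and 32 and 26 reads for Xrcc3. Rad54l, a motor protein that remodels the filament, was at 6.80 and 8.54 TPM and was the third gene whose interval lay higher in replicate 2, beside Msh3 and Xrcc3.

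Fanconi genes differed by role, with low core complex genes and a high deubiquitinase gene. The core complex is the ubiquitin ligase that marks the FANCD2 and FANCI clamp, and the deubiquitinase USP1 removes that mark. The median of the 8 core genes was 1.75 ± 0.03 on the log2(TPM + 1) scale, that of the clamp genes and Usp1 4.27 ± 0.11, and the difference 2.62 in replicate 1 and 2.42 in replicate 2. Usp1 was at 118 and 100.3 TPM (109 ± 12.2) and held 57.7% and 52.8% of the summed TPM of the Fanconi genes. A stretch of 60.9% of the Usp1 transcript has a copy of at least 95% identity in Gm5841, at 7.83 and 4.53 TPM, and reads may have been shared between them. Fanci and Fancd2, whose proteins form the clamp, were at 19.4 and 17.3 TPM and at 14.9 and 16.4 TPM. The ratio of Fanci to Fancd2 was 1.30 in replicate 1 (1.20 to 1.42) and 1.05 in replicate 2 (0.908 to 1.21), so a difference beyond counting error was seen in replicate 1 alone, and with principal transcripts the ratios were 1.12 (1.03 to 1.22) and 0.906 (0.783 to 1.05). Brip1, a helicase that works with BRCA1, averaged 6.03 ± 0.530 TPM.

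Within the core complex the levels spread over more than 1 order of magnitude. Fancl, the subunit with ligase activity, was at 19.0 and 23.0 TPM, and Fancb, which is X-linked and sits beside it in the catalytic module, averaged 12.6 ± 0.856 TPM. Fancm, the DNA translocase that anchors the complex, averaged 6.69 ± 0.378 TPM. Fancl, Fancb and Fancm were the 3 highest of the 8 core genes in both replicates, while Faap100, which encodes the partner of FANCB and FANCL and is not on the list, was at 0.363 and 0.861 TPM. Fance, of the module that binds the substrate, averaged 2.94 ± 0.430 TPM, and Fancg, of the arm built on FANCA, 1.74 ± 0.659 TPM. Fanca itself was at 1.59 TPM from 132 reads in replicate 1 and 0.512 TPM from 15 reads in replicate 2, with intervals that did not overlap. Fancf, an adaptor gene of a single exon, was at 0.498 and 1.59 TPM from only 8 and 9 reads, and Fancc, of the same module as FANCE, at 0.843 and 0.823 TPM from 67 and 23 reads. The intervals of Fancf overlapped, at 0.215 to 0.981 TPM in replicate 1 and 0.728 to 3.02 TPM in replicate 2. Overlap of separate intervals does not show that its replicates were equal.

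Damage signalling genes were all detected, with checkpoint kinase genes above the kinases that activate them. Chek1, the kinase downstream of stalled replication, was at 21.4 and 22.9 TPM, and Chek2, the kinase downstream of double-strand breaks, at 16.8 and 11.2 TPM. Chek1 exceeded Chek2 1.27-fold in replicate 1 (1.14 to 1.42) and 2.05-fold in replicate 2 (1.66 to 2.56). With principal transcripts the ratios were 1.18 (1.06 to 1.32) and 1.90 (1.53 to 2.37). Trp53bp1, a chromatin reader that protects break ends from resection, was at 9.92 and 9.31 TPM. Atm, the kinase that responds to breaks, was at 8.87 and 8.25 TPM, and Atr, the kinase that responds to RPA-coated DNA, at 4.35 and 3.22 TPM. Atm exceeded Atr 2.04-fold in replicate 1 and 2.57-fold in replicate 2 as deposited, but with principal transcript lengths the ratio was 0.740 and 0.929. The order of Atm and Atr therefore depended on the length, which for Atr is 23629 exonic bases against 8102 in its principal transcript.

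End joining genes split between the KU subunits and their kinase. Xrcc5, the larger KU subunit, was at 55.6 and 45.7 TPM, and Xrcc6, the smaller, at 32.4 and 22.7 TPM. Xrcc5 exceeded Xrcc6 1.72-fold in replicate 1 (1.59 to 1.85) and 2.02-fold in replicate 2 (1.74 to 2.34). With principal transcripts the ratios were lower, at 1.26 (1.17 to 1.36) and 1.48 (1.28 to 1.72). Prkdc, the kinase that KU recruits, was at 3.14 and 3.86 TPM and so lay below both subunits. Xrcc5 was 17.7-fold higher than Prkdc in replicate 1 (15.8 to 19.8) and 11.8-fold higher in replicate 2 (9.86 to 14.3). With principal transcripts these ratios were 17.0 and 11.4. Both KU genes had lower, non-overlapping intervals in replicate 2, whereas Prkdc did not.

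Comparison of the 7 sub-pathways as listed placed RPA highest and homologous recombination lowest. This order depends on the genes listed. Medians of the further genes given below were 3.60 ± 0.15 for signalling, 3.38 ± 0.14 for recombination and 3.16 ± 0.03 for Fanconi. They were 2.53 ± 0.28 for base excision and 1.75 ± 0.05 for end joining. Medians of log2(TPM + 1), as the mean ± SD of both replicates, were 5.83 ± 0.26 for RPA, 4.81 ± 0.35 for end joining, 3.41 ± 0.10 for mismatch, 3.41 ± 0.06 for damage signalling, 3.02 ± 0.12 for base excision, 2.88 ± 0.09 for Fanconi and 2.56 ± 0.01 for homologous recombination. Every RPA gene was above every homologous recombination gene in both replicates (30 of 30 gene pairs) and above the Fanconi genes in 34 of 36 pairs, the exceptions being those of Usp1. The other sub-pathways overlapped widely in their members. Base excision exceeded homologous recombination by 0.37 in replicate 1 and 0.55 in replicate 2 (0.46 ± 0.13), with the base excision gene higher in both replicates in 88 of 170 gene pairs and the recombination gene in 63. Counting Brca1, Brca2, Palb2, Rad51c and Xrcc2 as Fanconi genes and leaving Lig1 and Fen1 out of base excision turned the direction, to -0.32.

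The difference between base excision and Fanconi genes changed direction between the replicates. It was -0.010 in replicate 1 and 0.290 in replicate 2 (0.14 ± 0.21), and the base excision gene was higher in both replicates in 109 of 204 gene pairs, the Fanconi gene in 80. Mismatch and damage signalling were likewise within their spread, with a difference of 0.01 ± 0.16. Homologous recombination was 0.32 ± 0.08 below Fanconi by the medians, while 50 of 120 gene pairs had the recombination gene higher in both replicates and 55 the Fanconi gene. Spread within a sub-pathway was larger than the distance between these medians, since base excision ran from 0.59 TPM (Neil1) to 393 TPM (Apex1) and Fanconi from 0.833 TPM (Fancc) to 109 TPM (Usp1).

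**Figure D3:**
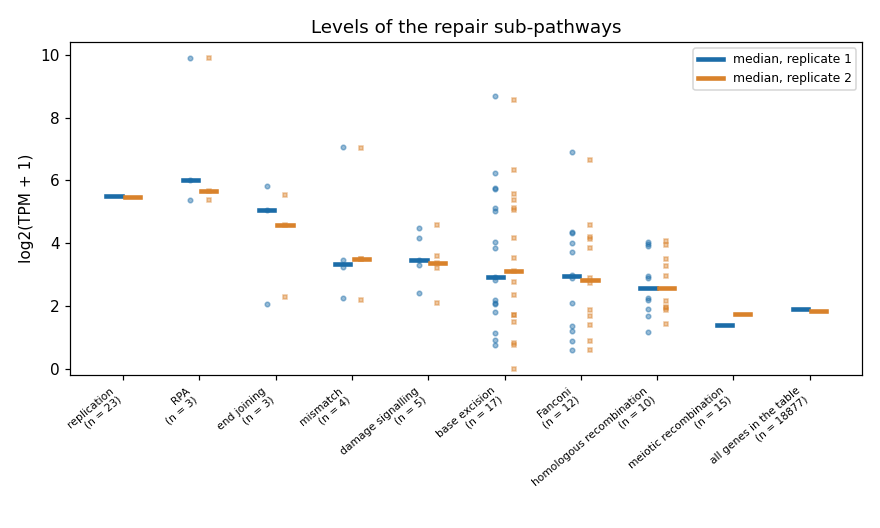
Levels as log2(TPM + 1) of the genes in each repair sub-pathway (points) and their median (bars) in replicate 1 (circles) and replicate 2 (squares), with the medians alone for replication genes, meiotic recombination genes and all genes. RPA has the highest repair median, 6.01 and 5.65, and homologous recombination the lowest, 2.56 and 2.55, against 1.89 and 1.85 for all genes.

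At least 10% of the exonic bases overlapped another gene, on the opposite strand, in 10 of the 54 genes, namely Apex1, Lig3, Fen1, Ogg1, Rad54l, Fanca, Fancf, Fanci, Fancl and Trp53bp1. Apart from Apex1 and Fen1 the overlap was at most 25.1% (Lig3). Leaving out these genes together with Usp1 and Xrcc6 kept 42 genes, and base excision minus Fanconi was -0.027. Over at least 10% of its length the Usp1 transcript has a near-identical copy in Gm5841. The match of Xrcc6, also over at least 10%, was to Desi1, a gene that overlaps it on the opposite strand.

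Gene length affected the sub-pathways unequally. Dividing the same reads by the length of the principal transcript in place of the summed exons, an alternative chosen after seeing the data, changed a level between 0.710-fold (Fancf) and 2.33-fold (Polb). The median change was 1.12-fold for base excision, 0.913-fold for homologous recombination and 0.918-fold for Fanconi genes, and the median of all genes shifted by -0.074 on the log2 scale. With principal lengths, base excision was 3.54 ± 0.23, homologous recombination 2.46 ± 0.05 and Fanconi 2.68 ± 0.09, which set base excision 1.08 above homologous recombination and 0.86 above Fanconi. Polb came to 16.6 TPM and Ung to 29.2 TPM by this measure, Msh3 to 18.8 TPM and Atr to 7.83 TPM, whereas Msh6 came to 94.8 TPM and Bard1 to 9.15 TPM.

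**Figure D4:**
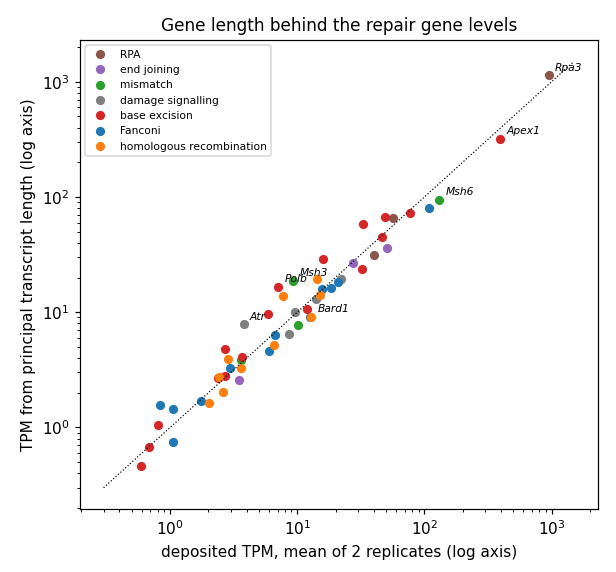
Mean TPM of the 54 repair genes as deposited (x axis) and after division of the same reads by principal transcript length (y axis), both on log axes, coloured by sub-pathway, with equality as a dotted line. Polb, Msh3 and Atr lie above the line at 2.33, 2.03 and 2.07 times the deposited level, and Msh6 and Bard1 below it at 0.726 and 0.711 times.

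Neighbours in the order of levels were seldom separated. Among the 53 pairs of neighbours by mean TPM, 13 had the lower replicate of 1 gene above the higher replicate of the next. These included each step from Rpa3 to Apex1, Msh6, Usp1, Lig1 and Rpa2. In 7 of the 13 the Poisson intervals were also apart in each replicate, at those 5 steps and at Rpa1 over Nthl1 and Xrcc1 over Atr. This order is that of the deposited values. With principal transcripts Nthl1 (60.2 and 57.4 TPM) was above Rpa1 (31.6 and 31.4 TPM). Rpa2 was then above Lig1 in replicate 1 (74.6 and 70.3 TPM), and Lig1 above Usp1 in replicate 2 (75.6 and 74.2 TPM). The other steps among the 7 kept their direction in both replicates. Below Rpa2 the genes Xrcc5, Parp2 and Parp1 could not be ordered, and from Atr down to Apex2 no gene was separated from its neighbour in this way. Across the 54 genes the replicates gave a Spearman rho of 0.977 and a Pearson r of 0.985 on the log2(TPM + 1) scale, a description across genes that share libraries and range over several orders of magnitude.

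Differences between the replicates were small in size for these genes. On the log2(TPM + 1) scale 1 of 54 genes (1.85%), Neil1, was over 2-fold apart, compared with 10.2% of all genes. With a pseudocount of 0.1 the count was 5, namely Neil1, Rad51d, Xrcc3, Fanca and Fancf, and leaving out genes with a mean below 1 TPM it was 0. The median absolute difference was 0.157 for the repair genes and 0.257 for all genes. The repair genes had the higher median level, 8.62 and 8.93 TPM compared with 2.71 and 2.61 TPM, and genes of like level were not compared. Poisson intervals did not overlap for 17 genes (31.5%), compared with 24.7% of all genes, with 14 lower and 3 higher in replicate 2. The 14 were Parp1, Apex1, Mbd4, Lig3, Neil1, Rpa2, Rad51d, Bard1, Fanca, Usp1, Atr, Chek2, Xrcc5 and Xrcc6. Of the 54 genes 31 (57.4%) were lower in replicate 2, compared with 51.3% of all genes, so this share was near that of the table. The split of 14 to 3 was more one-sided, and the same split over all genes is not given here. These differences compare 2 libraries of the same group, and 14 of the genes had fewer than 50 reads in replicate 2.

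Further repair genes were taken from lists of the same pathways. Of 95 listed, 91 had a row, 80 were detected in both replicates and 42 reached 10 TPM in both. Over all 18877 genes, 11329 were detected and 4784 reached 10 TPM in both. The median of log2(TPM + 1) of the 91 genes was 3.46 ± 0.17. Nucleotide excision genes, which remove bulky lesions, were detected in 19 of 23 cases with a median of 3.83 ± 0.06, from Ercc4, a nuclease subunit, at 0.688 and 0.578 TPM to Ccnh, the cyclin of the transcription factor TFIIH, at 106 and 97.5 TPM. The further recombination genes (20 of 22 detected, median 3.38 ± 0.14) ran from the helicase gene Helq at 1.91 and 0.177 TPM to Sfr1, a recombinase accessory factor, at 291 and 281 TPM. The further Fanconi genes (6 of 8 detected, median 3.16 ± 0.03) ran from Faap100, named above, to Ube2t, the ubiquitin-conjugating enzyme of the core complex, at 128 and 104.5 TPM. As deposited, the genes of the enzyme that supplies ubiquitin to the complex and of USP1, which removes it from the clamp, were above 100 TPM in each replicate. The interval of Usp1 in replicate 2 was 94.8 to 106 TPM, and with principal transcripts Usp1 was at 87.4 and 74.2 TPM.

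All 8 further base excision genes in the table were detected, at a median of 2.53 ± 0.28, from Tdp1 at 1.16 and 1.09 TPM to Tdp2 at 107 and 95.1 TPM, which release topoisomerases trapped on DNA. All 14 further signalling genes were detected, at a median of 3.60 ± 0.15, from Atrip, the partner of ATR, at 1.60 and 2.02 TPM to Tipin, a replication fork protector, at 434 and 417 TPM. Lower values were found among end joining genes beyond KU (4 of 6 detected, median 1.75 ± 0.05), from Polq, the polymerase of microhomology-mediated joining, at 1.43 and 0.216 TPM to Xrcc4, a ligase partner, at 43.4 and 43.5 TPM. Translesion genes (6 of 7 detected, median 3.85 ± 0.10) ran from the polymerase gene Polk at 1.78 and 0.862 TPM to the ubiquitin-conjugating gene Ube2b at 245 and 239 TPM, and the 3 direct reversal genes, which take alkyl groups off bases, from Mgmt at 4.54 and 3.31 TPM to Alkbh2 at 46.9 and 47.5 TPM. Over 2-fold apart between replicates were 4 of the 91 genes, Xpa, Helq, Mad2l2 and Polq, compared with 10.2% of all genes.

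Replication and meiotic recombination genes bracketed the repair genes. The 23 replication genes were all detected, with a median of 5.48 ± 0.01 that exceeded the repair genes by 2.22 in replicate 1 and 2.17 in replicate 2, from the licensing factor Cdc6 at 5.77 and 5.38 TPM to the clamp loader gene Rfc4 at 743 and 708 TPM. Meiotic recombination genes had a row in 15 cases and were detected in 9, compared with 60% of all genes in the table. Their median of 1.56 ± 0.26 lay below that of the repair genes by 1.89 and 1.57. They ran from Rad21l, listed at 0 in both replicates, to Psmc3ip, a recombinase cofactor, at 133 and 90.3 TPM. RPA, with a median of 5.83 ± 0.26, was the only repair sub-pathway at or above the replication median in both replicates, and no sub-pathway was below the meiotic median.

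Promoters of the repair genes were searched for short sequence words in RefSeq windows on GRCm38.p6, from 250 bases before to 50 bases after the start, which 46 of the 54 genes had. Each gene had 1 window, at its most upstream RefSeq start, and use of this start in PGCs was not tested. Windows of Fancl, Lig1, Xrcc1 and Xrcc5 held only 3, 5, 7 and 9 CpG sites, so a word at another start would be missed. E2F words (TTTCGCGC, TTTGGCGC, TTTCCCGC or TTTGCCGC, on either strand), letters bound by regulators of S phase genes, were present in 9 of 46 windows (19.6%), compared with 4.11% of 10839 genes with a window and 4.5% of those with a mean TPM of at least 1. They were found in 2 of 3 mismatch, 3 of 8 homologous recombination, 1 of 2 end joining, 1 of 5 damage signalling, 1 of 10 Fanconi, 1 of 15 base excision and 0 of 3 RPA windows, and in 9 of 18 replication windows (50%). The 9 genes with a word were Nthl1, Msh3, Msh6, Rad51c, Brca2, Bard1, Fancg, Chek2 and Xrcc6. Each is shown as 30 bases on the strand of the gene, 5′ to 3′, with the E2F word or its reverse complement in capitals, to let the words be compared across sub-pathways. For Msh3 the pair of words overlaps and the first is shown.
Nthl1, chr17:24632539-24632568, plus strand: ccgcgcgcgccTTTCGCGCgcaggtcctcc
Msh3, chr13:92355187-92355216, minus strand: ttgccgtcaagTTTGGCGCgaaatcgcagc
Msh6, chr17:87975054-87975083, plus strand: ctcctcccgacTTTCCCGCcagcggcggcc
Rad51c, chr11:87404941-87404970, minus strand: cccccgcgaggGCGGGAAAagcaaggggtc
Brca2, chr5:150522442-150522471, plus strand: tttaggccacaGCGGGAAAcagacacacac
Bard1, chr1:71103163-71103192, minus strand: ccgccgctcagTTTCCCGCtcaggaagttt
Fancg, chr4:43010335-43010364, minus strand: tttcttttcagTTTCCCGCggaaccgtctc
Chek2, chr5:110839820-110839849, plus strand: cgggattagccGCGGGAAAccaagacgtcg
Xrcc6, chr15:82016312-82016341, plus strand: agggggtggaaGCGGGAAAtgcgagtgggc

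The word TTTCCCGC or its reverse complement was the one in 7 of these 9 windows. Counted from the start base as 0, the word began at 15 in Msh6 and at -5, across the start, in Rad51c, and in the other genes upstream, between -209 (Bard1) and -46 (Xrcc6). A match describes letters only and is no measure of binding. The repair genes with an E2F word had medians of 4.04 and 3.50 in replicates 1 and 2 on the log2(TPM + 1) scale (3.77 ± 0.38, 9 genes), and those without one 3.30 and 3.25 (3.28 ± 0.04, 37 genes). Over all genes with a window the medians were also higher with a word, 2.83 and 2.69 (446 genes), than without one, 2.15 and 2.09 (10393 genes). The genes with a word ran from Fancg at 1.74 TPM to Msh6 at 130.5 TPM, so both low and high genes carried it. CCAAT was present in 28 windows (60.9%, compared with 39.9% of all), the GC box GGGCGG in 33 (71.7%, compared with 61.6%) and the ETS word CCGGAAG in 11 (23.9%, compared with 18.1%). The CHR word TTTGAA was present in 2 (4.35%, compared with 12.5%) and the NRF1 word GCGCATGCG in 1 (2.17%, compared with 3.76%), and the median window held 22 CpG sites, compared with 20 over all genes.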

How the data were processed

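RNA-seq of 2 E9.5 PGC replicates was analysed. According to the methods the authors aligned 150-bp reads to mm10 with Hisat2 and counted genes with featureCounts, and TPM were deposited by the authors. The methods name Smart-seq2 and the labels NEBNext Ultra, so library chemistry, which affects coverage along transcripts, is uncertain. The processing notes also list Bowtie2, RSEM, DESeq2 and R 3.4.2 without roles. Annotation and strand handling are not given in the sources used here. TPM is relative, so abundant genes lower all others.

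The repair genes and lists were chosen with earlier results of these data known. Of 18877 symbols (17 turned into dates), 18748 matched 1 GENCODE M21 gene on GRCm38 and 129 did not. Reads were recovered as whole multiples of TPM times summed exon length (96.7% and 95.8% of values under 50 reads within 0.02 of a whole number). Among the repair genes 51 were within 0.05, and Nthl1, Msh6 and Fance were not. Recovery was also run on simulated libraries made with the same exon lengths, so it could not test whether those lengths are the authors' own. Intervals are exact Poisson, ratios exact conditional binomial, both 95%, and a zero allows 3 reads. Detection was a TPM of at least 1, and 2-fold was judged on log2(TPM + 1), which understates changes of low genes. Copies were stretches of at least 100 bases at 95% identity in another gene, overlapping genes included. Every repair gene was named with its level, and both replicates were given for sub-pathways of 5 or fewer, the 4 highest and 3 lowest of larger ones, related pairs and genes over 2-fold apart. Of other lists the highest and lowest were named, and 4 over 2-fold apart were named after their values were seen. Alternatives were a pseudocount of 0.1, filters, thresholds, 2 rescalings, other sub-pathway assignment and leaving out each replicate. Principal transcript length and omission of genes with overlaps or copies over at least 10% of their length were chosen after seeing the data. Python 3.11.15, numpy 2.4.6, pandas 2.3.3, scipy 1.17.1, matplotlib 3.10.9, blastn 2.17.0 and bedtools 2.31.1 were used.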

Additional observations from a re-analysis of the deposited data

How the results depend on the processing

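Of 40 alternative values for 5 results, 23 stayed within their limits, 13 moved and 4 reversed. The median level of all repair genes, 3.29, was 3.15 with a pseudocount of 0.1 and 3.47 with a mean TPM of at least 1. It was 3.89 with TPM rescaled to protein-coding nuclear genes only and 3.42 with principal transcript length. It was 2.99 without the 12 genes that overlap another gene or have a copy over at least 10% of their length. Leaving out 1 replicate gave 3.27 to 3.31. Base excision minus homologous recombination, 0.46, was 1.33 with a mean TPM of at least 1, 1.08 with principal transcript length, 0.37 to 0.55 leaving out 1 replicate and -0.32 with the other assignment of genes. Base excision minus Fanconi, 0.14, was 0.95 with a mean TPM of at least 1 and 0.86 with principal transcript length, but -0.022 with the other assignment, -0.027 without those 12 genes, and -0.010 without replicate 2 and 0.290 without replicate 1. Detected genes numbered 34 to 52 of 54 across thresholds and 49 to 50 leaving out 1 replicate. Genes over 2-fold apart numbered 5 with a pseudocount of 0.1 (Neil1, Rad51d, Xrcc3, Fanca and Fancf), and 0 with a mean TPM of at least 1, with 100 or more reads over both libraries, or with principal transcript length. The filter on mean TPM leaves 50 genes, so it drops the low genes by construction, and the cause of the other changes was not tested. No paired analysis was possible because there was 1 group. Depth limits the 14 genes with fewer than 50 reads in replicate 2, of which 3 had fewer than 10.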
